A study of Mus musculus with 12 samples.

Results

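The genes described here make cholesterol and fatty acids, or steer their making, and are known in textbooks as targets or regulators of the sterol regulatory element binding proteins (SREBPs). They were chosen by gene symbol as 32 of the 46078 rows of the deposited expression table; the rule itself uses no measured value, but the list was drawn up with earlier results of these data known. Of the 32 genes, 31 passed the filter on low values, which asked for 3 or more of the 12 libraries to reach 3 on the log2 scale; 10981 genes of the table passed it in all. The gene left out, Scd1, had 11 reads in all 12 libraries together.

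The cells were BV2, a microglial line of the mouse made immortal by oncogenes, and the message was read at its 3′ end from poly-A RNA of the cytosol. Wild type (WT) cells and cells with a knockout (KO) of Atg5, a gene needed to build autophagosomes, were kept for 24 h in plain medium or with interferon gamma (IFNγ), the cytokine that activates macrophages, at 1 U/mL. Each of the 4 groups has 3 libraries, lettered A, B and C, and all cells grew in DMEM with serum, itself a source of cholesterol. How the knockout was made and how many clones stand behind it are not given in the sources used here.

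SREBPs are made as membrane proteins of the endoplasmic reticulum. When sterols are scarce, the escort protein Scap carries them to the Golgi, where proteases release the part that enters the nucleus and switches on genes of lipid synthesis. When sterols are plentiful, Insig proteins hold Scap back, so the messages of SREBP targets fall together. The product of Srebf2 acts mainly on cholesterol genes and that of Srebf1 mainly on fatty acid genes, and in macrophages both pathways respond to inflammatory signals.

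Recovered reads came to between 3329849 and 7330435 per library. Atg5 message stood at 8.35 to 8.57 on the log2 scale in the WT medium libraries and at 8.68 to 9.02 in the KO medium libraries. It stood at 8.86 to 8.96 in WT and at 8.74 to 8.83 in KO libraries with IFNγ. Atg5 message was thus not reduced in the libraries labelled KO, and since the altered part of the gene is not given, reads from the 3′ end may lie outside it and do not check the genotype labels. Among 14 markers of microglia and macrophages 13 were tested, with Cd68, Csf1r and Spi1 well read, while Tmem119, P2ry12 and Sall1 had 62, 87 and 1 reads in all. No marker of B cells, adipocytes or hepatocytes had a read, and the summed normalised count of any neuron, astrocyte, endothelial, fibroblast or T cell list was at most 3.83 in any library. The interferon response was weakest in library C of each genotype: Irf1, an IFNγ-induced transcription factor, stood at 11.2, 11.1 and 8.93 in WT libraries A, B and C with IFNγ, and at 11.2, 11 and 9.86 in the KO libraries.

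The promoters of 4 of the genes that fell with IFNγ in at least 1 of the comparisons are shown. Each of these 4 carries letters known to be bound by NF-Y, a partner of SREBPs, and 1 also carries the SREBP element searched for here. The 4 were chosen by no fixed rule, and the windows of Elovl6 and Acat2, which also fell, hold no NF-Y box. The sequences are RefSeq's on GRCm38.p6, written 5′ to 3′ in the sense of the gene, and end just before the first start of transcription in RefSeq or GENCODE. Hmgcs1 lies on the plus strand at chr13:119690101-119690350, Mvd on the minus strand at chr8:122443423-122443672, Insig1 on the plus strand at chr5:28071162-28071362 and Fasn on the minus strand at chr11:120824548-120824797. Capitals mark the sterol regulatory element core TCACNCCAC, which only the first of the 4 holds, and the NF-Y box CCAAT or its complement ATTGG; in Fasn a CCAAT and an ATTGG share letters.
Hmgcs1: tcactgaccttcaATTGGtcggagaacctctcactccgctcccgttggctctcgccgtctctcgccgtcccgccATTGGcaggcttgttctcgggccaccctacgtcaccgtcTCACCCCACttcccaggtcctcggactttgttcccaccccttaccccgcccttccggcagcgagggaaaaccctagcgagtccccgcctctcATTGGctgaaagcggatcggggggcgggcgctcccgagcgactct
Mvd: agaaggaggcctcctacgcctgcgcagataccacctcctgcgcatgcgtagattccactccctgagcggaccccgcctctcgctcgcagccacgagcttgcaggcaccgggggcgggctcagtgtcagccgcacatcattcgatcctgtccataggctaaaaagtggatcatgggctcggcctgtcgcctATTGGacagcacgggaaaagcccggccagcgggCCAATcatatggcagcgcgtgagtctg
Insig1: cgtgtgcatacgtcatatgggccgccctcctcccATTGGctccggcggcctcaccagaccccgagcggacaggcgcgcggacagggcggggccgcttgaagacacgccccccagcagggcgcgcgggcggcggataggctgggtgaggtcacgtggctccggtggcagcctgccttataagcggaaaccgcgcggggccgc
Fasn: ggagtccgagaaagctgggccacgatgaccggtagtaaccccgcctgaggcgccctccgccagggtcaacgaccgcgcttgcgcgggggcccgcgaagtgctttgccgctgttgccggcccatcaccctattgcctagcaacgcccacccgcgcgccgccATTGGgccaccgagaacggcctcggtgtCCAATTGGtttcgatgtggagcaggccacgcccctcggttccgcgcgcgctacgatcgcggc

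RefSeq promoters of 300 bases, 250 before and 50 after the start, were matched for 26 of the 32 genes and searched on both strands. The element core TCACNCCAC was found for 1 of the 26, Hmgcs1, where it starts at position -137 counted from the RefSeq start, against 1.44% of 27025 genes. The NF-Y box CCAAT was found for 22 of the 26 genes (84.6%) against 41.1% of all genes. It was found for 8 of the 10 matched genes called lower in the mean response described below, and not for Acat2 or Elovl6. The box GGGCGG, which Sp1 factors bind, was found for 21 (80.8%) against 38.2%, and CACGTG, an E box that Srebf1 products can also bind, for 5 (19.2%) against 8.09%. These matches describe letters in 1 window per start, the comparison takes in every gene with an entry, expressed in BV2 cells or not, and the motifs' part in the expression results was not tested. Sqle, Scd2, Scd1, Stard4, Fdps and Fdft1 have no entry and are named only.

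A share of the cholesterol and fatty acid genes fell with IFNγ in each genotype, and Elovl6, Mvd, Hmgcs1 and Insig1 had the largest called falls in the mean of both genotypes. In WT cells 12 of the 31 tested genes fell and 0 rose at an adjusted p under 0.05 by limma, a linear model with a shared estimate of the spread, against 2.12% of all tested genes called lower and 4.53% called higher. In KO cells 7 fell and 0 rose, against 2.69% and 4.67%. In the mean of both genotypes 13 fell and 0 rose, against 5.79% and 8.35%. The median log2 change of the 31 genes was -0.52 in WT, -0.56 in KO and -0.52 in the mean, while the median of all tested genes was -0.018, 0.010 and -0.0097. Of the 31 changes in the mean response 29 were below 0, and Ggps1 and Insig2 were above it. All 20 genes with an unadjusted p under 0.05 in the mean response were lower, where 25.9% of all tested genes, in either direction, passed that p. By voom on the recovered reads 10 genes fell in WT cells, 7 in KO cells and 13 in the mean response, and 0 rose. In bulk RNA of this kind, fewer cells that express a gene and less RNA of it per cell cannot be told apart.

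A simpler count needs no model. In 9 of the 31 genes, namely Acat2, Hmgcs1, Mvd, Sqle, Cyp51, Srebf2, Insig1, Stard4 and Scd2, all 6 IFNγ libraries lay below all 6 medium libraries, and in 0 genes did they lie above. Among all tested genes 2.5% were separated downward in this way and 4.6% upward. The remaining 22 genes overlapped between treatments.

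**Figure D1:**
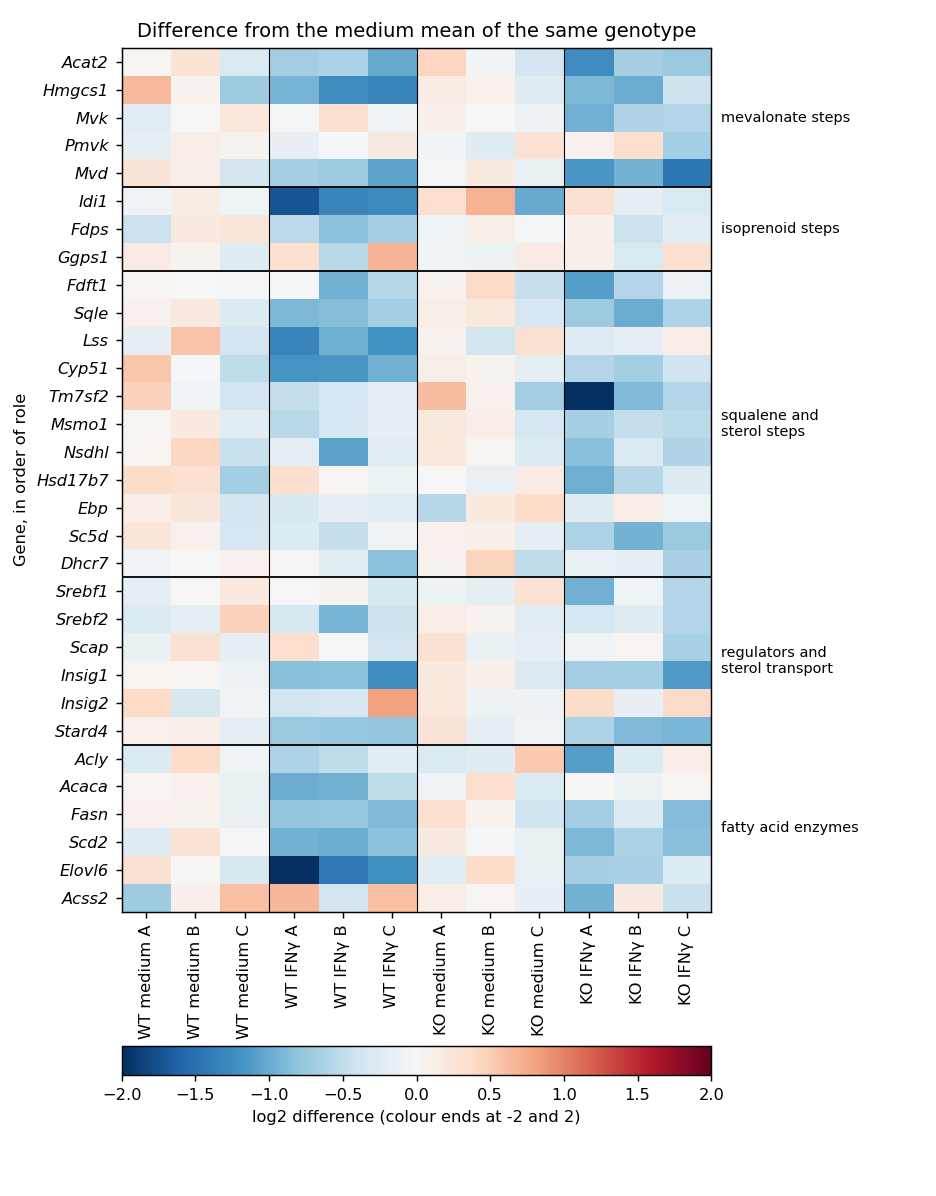
Log2 difference of each of the 31 tested genes (rows, in order of role) in each of the 12 libraries (columns) from the medium mean of the same genotype; blue is lower and red higher. The 6 IFNγ columns are blue for most genes, with library medians from -0.43 to -0.73, and library C is the medium column with the most blue cells in each genotype (24 of 31 genes below 0). The share of all tested genes below 0 in these columns was not counted.

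The mevalonate steps turn acetyl-CoA into the building block of all sterols and isoprenoids. Hmgcs1, which makes HMG-CoA, stood in medium at 10.59, 10.02 and 9.23 in WT libraries A, B and C and at 9.65, 9.59 and 9.27 in KO libraries. With IFNγ it stood at 9.02, 8.70 and 8.63 in WT and at 8.61, 8.51 and 9.08 in KO libraries. The treated libraries lay below every medium library, by a narrow margin for KO library C. Hmgcs1 fell by 1.16 (SE 0.26, adjusted p 0.00866) in WT cells and by 0.97 (SE 0.19, adjusted p 0.00114) in the mean response; in KO cells the change was -0.77 (SE 0.26) with an adjusted p of 0.0886. The WT call ended without WT medium library A (-0.84, adjusted p 0.0677).

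Mvd decarboxylates mevalonate diphosphate to isopentenyl diphosphate. It stood at 7.82, 7.66 and 7.19 in WT medium libraries and at 6.90, 6.83 and 6.51 with IFNγ, and at 7.43, 7.66 and 7.32 in KO medium libraries and at 6.31, 6.52 and 6.03 with IFNγ. It fell in WT cells by 0.81 (SE 0.24, adjusted p 0.0487) and in KO cells by 1.19 (SE 0.24, adjusted p 0.00339), and its mean response of -1.0 amounts to 50.0% of the medium level. The KO call held under every alternative run, whereas the WT call, close to the threshold, ended under 13 of 22, among them leaving out any of the WT IFNγ libraries, WT medium library A or B, any KO medium library or KO IFNγ library A.

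Acat2 encodes the cytosolic thiolase that joins acetyl-CoA units. Its values in WT libraries were 8.09, 8.33 and 7.76 in medium and 7.37, 7.43 and 7.05 with IFNγ, and in KO libraries 8.39, 7.90 and 7.59 in medium and 6.72, 7.29 and 7.22 with IFNγ. All treated libraries lay below all medium ones. It fell by 0.88 in KO cells (SE 0.25, adjusted p 0.0334) and by 0.83 in the mean response (SE 0.18, adjusted p 0.00254), and the WT change of -0.78 had an adjusted p of 0.0678. The KO call ended without KO medium library A (adjusted p 0.183) or B, or KO IFNγ library A or C, and also without the variance trend or with the compared groups only. Mvk and Pmvk, the kinases between Hmgcs1 and Mvd in the pathway, passed no test, with mean responses of -0.32 (95% interval -0.80 to 0.15) and -0.04 (-0.41 to 0.32). Mvk rested on 424 reads over the 12 libraries and Pmvk on 2993, so depth limits Mvk more.

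None of the 3 isoprenoid enzymes was called in the mean response by limma or by voom, though 2 were lower at an unadjusted p under 0.05. In WT cells 1 of the 3, Idi1, fell, where 2.12% of all tested genes did. Idi1, the isomerase of isopentenyl diphosphate, stood at 5.78, 6.0 and 5.77 in WT medium libraries and at 4.12, 4.53 and 4.58 with IFNγ. The KO libraries held 5.59, 5.96 and 4.25 in medium and at 5.57, 5.09 and 4.96 with IFNγ. The WT groups did not overlap, and the KO groups did. Idi1 fell by 1.44 in WT cells (SE 0.40, adjusted p 0.0333) and its KO change was -0.06 (SE 0.40, adjusted p 0.959), but it had 499 reads in all and its WT call ended under 8 of 22 alternatives, among them leaving out any WT medium library or WT IFNγ library A or B. Fdps, which makes farnesyl diphosphate, changed by -0.67 in WT (adjusted p 0.112) and -0.19 in KO cells (adjusted p 0.745). Ggps1, which makes geranylgeranyl diphosphate for prenylation of proteins, had a mean response of 0.09 (95% interval -0.30 to 0.48).

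In the 11 genes from squalene to cholesterol, 5 fell in the mean response, 3 in WT and 2 in KO cells. Among all tested genes 5.79%, 2.12% and 2.69% fell in the same comparisons. The median of the 11 in the mean response was -0.53. Sqle, the squalene epoxidase and a rate-limiting step of sterol synthesis, stood at 9.68, 9.77 and 9.32 in WT medium libraries and at 8.69, 8.75 and 8.91 with IFNγ. Sqle values in KO libraries were 9.40, 9.49 and 8.94 in medium and 8.55, 8.28 and 8.65 with IFNγ. Every treated library lay below every medium library, by a narrow margin for WT IFNγ library C (8.91) against KO medium library C (8.94). The fall was 0.81 (SE 0.20, adjusted p 0.014) in WT and 0.78 (SE 0.20, adjusted p 0.0166) in KO cells, and the difference between these responses was 0.03 with a 95% interval from -0.55 to 0.61. The WT call ended without library A or B of either WT group (adjusted p up to 0.0866), and the KO call without KO medium library A or B or KO IFNγ library B (up to 0.0904).

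Cyp51, the demethylase of lanosterol, stood in WT libraries at 10.31, 9.73 and 9.25 in medium and at 8.59, 8.6 and 8.81 with IFNγ. KO cells showed 9.43, 9.39 and 9.11 in medium and 8.72, 8.63 and 8.91 with IFNγ. It fell by 1.1 in WT cells (SE 0.22, adjusted p 0.00339) and by 0.83 in the mean response (SE 0.16, adjusted p 0.000941), both under every alternative run, and its KO change was -0.56 (adjusted p 0.153). Its last exon overlaps 166 exon bases of Akap9 on the opposite strand, and since the strand setting of the authors' counting is not given, reads of the pair cannot be told apart.

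Lss, the cyclase that makes lanosterol, stood at 7.40, 8.14 and 7.19 in WT medium libraries and at 6.26, 6.61 and 6.37 with IFNγ. Lss values in KO libraries were 6.94, 6.50 and 7.17 in medium and 6.61, 6.67 and 7.0 with IFNγ. The groups were apart in WT and overlapped in KO libraries, where the medium values were already lower. Lss fell by 1.17 in WT cells (SE 0.27, adjusted p 0.0109) and its KO change was -0.11 (SE 0.27, adjusted p 0.876). The WT call ended without WT medium library B (-0.89, adjusted p 0.0977) or WT IFNγ library A. Its call in the mean response (-0.64, SE 0.19, adjusted p 0.0306) ended without WT medium library B (-0.50, adjusted p 0.108), WT IFNγ library A, KO medium libraries A or C or KO IFNγ libraries A or B, and without the variance trend.

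Sc5d, the desaturase of a late sterol intermediate, stood at 9.87, 9.72 and 9.30 in WT medium libraries and at 9.36, 9.15 and 9.56 with IFNγ, which overlap. In KO libraries it stood at 9.68, 9.69 and 9.42 in medium and at 8.98, 8.65 and 8.85 with IFNγ, which do not. It fell by 0.77 in KO cells (SE 0.19, adjusted p 0.0159) and by 0.52 in the mean response (SE 0.13, adjusted p 0.0126). The KO call ended without KO medium library A or B or KO IFNγ library B (adjusted p up to 0.0707). Msmo1, the methyl sterol oxidase, went from 9.86, 9.99 and 9.58 to 9.26, 9.46 and 9.64 in WT libraries and from 9.87, 9.80 and 9.34 to 9.0, 9.19 and 9.14 in KO libraries. Its fall of 0.46 in the mean response (SE 0.13, adjusted p 0.0254) was the smallest called, and the call ended under 8 of 21 alternatives, among them leaving out library A or B of WT medium, of WT IFNγ or of KO medium, or KO IFNγ library A.

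The other 6 genes of these steps passed no test. Fdft1, the squalene synthase, changed by -0.56 in the mean response (adjusted p 0.0742), but 774 exon bases at its 3′ end lie on those of Ctsb on the opposite strand, which had 105977 reads against 2181, so its value is uncertain. Nsdhl changed by -0.53 (adjusted p 0.108) and Dhcr7, the last reductase of one branch, by -0.33 (adjusted p 0.281). Hsd17b7 and Ebp changed by -0.26 and -0.15. Tm7sf2, a sterol reductase with 167 reads in all, changed by -0.88 with a 95% interval from -1.77 to -0.00041.

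Among the regulators, the feedback inhibitor and the sterol carrier fell while the escort protein did not pass the test. Insig1, itself an SREBP target, stood at 10.47, 10.48 and 10.30 in WT medium libraries and at 9.58, 9.59 and 9.18 with IFNγ. The KO values were 10.24, 10.15 and 9.76 in medium and 9.36, 9.36 and 8.92 with IFNγ. No treated library reached the lowest medium library. Insig1 fell by 0.96 in WT (SE 0.19, adjusted p 0.00292), by 0.84 in KO cells (SE 0.19, adjusted p 0.00889) and by 0.90 in the mean response (SE 0.13, adjusted p 8.45e-05), to 53.6% of the medium level. The KO call ended without KO medium library A (adjusted p 0.0557) or KO IFNγ library C (adjusted p 0.0542).

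Insig2, the paralog that is not driven by SREBP in the same way, had a mean response of 0.11 (95% interval -0.33 to 0.56). Stard4, a carrier of cholesterol between membranes, stood at 8.6, 8.62 and 8.34 in WT medium libraries and at 7.78, 7.77 and 7.72 with IFNγ. Stard4 in KO libraries read 8.66, 8.22 and 8.34 in medium and 7.79, 7.52 and 7.49 with IFNγ. The treated libraries were lower throughout. Stard4 fell by 0.76 in WT (SE 0.19, adjusted p 0.0192) and by 0.81 in KO cells (SE 0.19, adjusted p 0.0124). The WT call ended without library A or B of either WT group (adjusted p up to 0.0929) and the KO call without KO medium library A (0.0766).

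Srebf2 and Srebf1 encode the transcription factors. Srebf2 stood in medium at 8.31, 8.39 and 9.05 in WT and at 8.64, 8.58 and 8.29 in KO libraries, and with IFNγ at 8.26, 7.66 and 8.15 in WT and at 8.16, 8.26 and 7.91 in KO libraries. All treated libraries lay below all medium ones, by 0.03 at the closest pair, yet the mean response of -0.48 (SE 0.16) had an adjusted p of 0.0547. Srebf1 changed by -0.31 (adjusted p 0.212), with -0.08 in WT and -0.55 in KO cells, and its 3′ end overlaps 109 exon bases of Rai1 on the opposite strand. Scap changed by -0.12 (95% interval -0.52 to 0.29). These are message levels and say nothing of how much SREBP was cut and active.

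**Figure D2:**
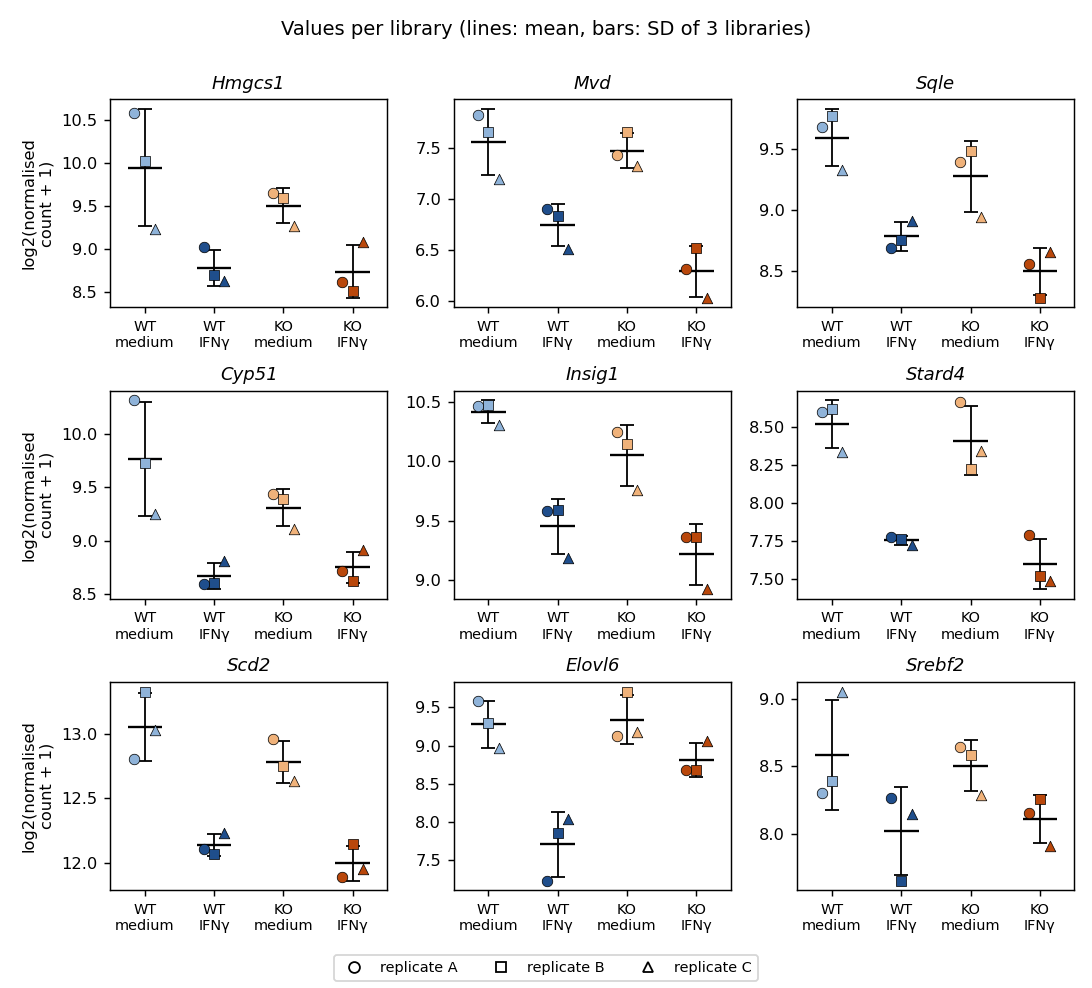
Log2(normalised count + 1) of 9 genes in every library, with the mean (line) and SD (bar) of the 3 libraries of a group; circles, squares and triangles are replicates A, B and C, and each panel has its own vertical axis that does not start at 0. The IFNγ group means are below the medium group means in all 9 panels. The panels show Srebf2 and genes picked from those called lower in the mean response, so this largely follows from the choice. For Elovl6 the KO IFNγ libraries (8.68 to 9.07) sit above the WT IFNγ libraries (7.23 to 8.05) and overlap the lowest WT medium library (8.96).

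The fatty acid enzymes carry acetyl-CoA to long and unsaturated acyl chains. Scd2, a desaturase that makes monounsaturated fatty acids and the one most read here with 75949 reads, stood at 12.81, 13.33 and 13.04 in WT medium libraries and at 12.11, 12.07 and 12.23 with IFNγ. Scd2 in KO libraries came to 12.96, 12.76 and 12.63 in medium and 11.89, 12.15 and 11.95 with IFNγ. The treatments did not overlap in either genotype. Scd2 fell by 0.92 in WT (SE 0.18, adjusted p 0.00263), by 0.79 in KO cells (SE 0.18, adjusted p 0.00889) and by 0.86 in the mean response (SE 0.13, adjusted p 7.89e-05). The KO call ended without KO medium library A (adjusted p 0.0542). Its paralogs Scd1, Scd3 and Scd4 had 11, 8 and 2 reads assigned to them in all. Reads of theirs counted as Scd2 would not show there, and this was not checked.

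Fasn, the fatty acid synthase, stood at 9.86, 9.84 and 9.62 in WT medium libraries and at 8.99, 9.02 and 8.89 with IFNγ. Fasn in KO libraries stood at 9.90, 9.65 and 9.18 in medium and at 8.88, 9.28 and 8.72 with IFNγ. KO IFNγ library B lay above KO medium library C, the single overlap. Fasn fell by 0.81 in WT cells (SE 0.20, adjusted p 0.0177) and by 0.71 in the mean response (SE 0.14, adjusted p 0.00166); the KO change was -0.62 with an adjusted p of 0.0734. The WT call ended without library A or B of either WT group (adjusted p up to 0.0808). Acaca, the carboxylase that makes malonyl-CoA, fell by 0.82 in WT cells (SE 0.24, adjusted p 0.0487), with 7.11, 7.14 and 6.90 in medium and 6.05, 6.09 and 6.55 with IFNγ. Its KO values were 6.88, 7.29 and 6.67 in medium and 6.98, 6.84 and 6.98 with IFNγ, a change of -0.01 (SE 0.24). The WT call of Acaca ended under 14 of 22 alternatives, with adjusted p between 0.0203 and 0.168, among them leaving out any WT medium library, WT IFNγ library A or B, KO medium library A or any KO IFNγ library.

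Elovl6 lengthens the palmitate that Fasn makes. It stood at 9.58, 9.30 and 8.96 in WT medium libraries and at 7.23, 7.85 and 8.05 with IFNγ, and at 9.12, 9.70 and 9.18 in KO medium libraries and 8.68, 8.68 and 9.07 with IFNγ. In WT cells Elovl6 fell by 1.57 (SE 0.24, adjusted p 0.000166), to 33.7% of the medium level, and the fall was called under every alternative run. In KO cells the change was -0.53 (SE 0.24) with an adjusted p of 0.217, and the mean response was -1.05 (SE 0.17, adjusted p 0.000162). Acly, which supplies cytosolic acetyl-CoA from citrate, changed by -0.43 (adjusted p 0.195), and Acss2, which makes it from acetate and had 214 reads, by -0.05 (95% interval -0.77 to 0.66).

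**Figure D3:**
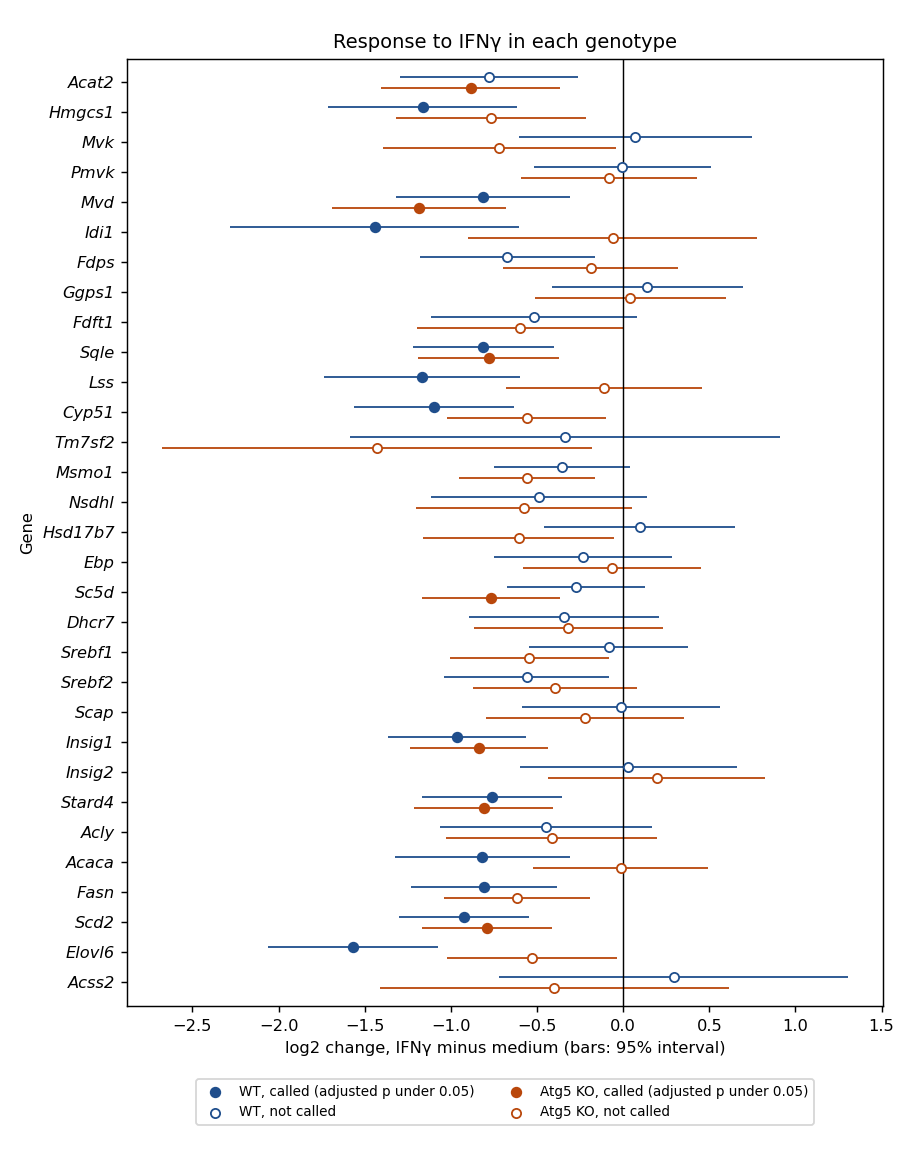
Log2 change with IFNγ of each of the 31 tested genes in WT (blue) and Atg5 KO cells (orange); bars are 95% intervals and filled points passed an adjusted p under 0.05. Filled points in both genotypes belong to Insig1, Mvd, Scd2, Sqle and Stard4, and the genotypes lie farthest apart for Idi1, Tm7sf2, Lss and Elovl6.

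Calls in both genotypes were made for 5 of the 31 genes, Insig1, Mvd, Scd2, Sqle and Stard4. Among all tested genes 730 were called in WT and 808 in KO cells, in either direction, but their overlap was not counted. The 5 of 31 therefore has no share of all genes to be set against. Of the 31 genes, another 7 were called in WT only and 2, Acat2 and Sc5d, in KO only, which does not show that the responses differ. The difference itself was called for 0 of the 31 genes by limma and by voom, against 0% of all tested genes called lower and 0% higher. At an unadjusted p under 0.05 there were 4 of 31, all with a weaker fall in KO cells, against 7.21% of all genes. These were Idi1 (1.38, SE 0.57, adjusted p 0.642), Lss (1.05, SE 0.38, adjusted p 0.59), Elovl6 (1.04, SE 0.33, adjusted p 0.541) and Acaca (0.80, SE 0.34, adjusted p 0.656). The intervals are wide, as for Insig1 (0.13, 95% interval -0.44 to 0.70) and Scd2 (0.13, -0.40 to 0.67), so equal responses are not shown either.

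Between the genotypes in medium, 0 of the 31 genes were called by limma and 0 by voom, against 0.31% of all tested genes lower and 0.118% higher in KO cells. The median difference was -0.10, and 2 of 31 genes had an unadjusted p under 0.05, close to the 8.26% of all tested genes: Lss (-0.71, SE 0.27, adjusted p 0.469) and Insig2 (-0.74, SE 0.30, adjusted p 0.523). With IFNγ 0 genes were lower and 1 was higher in KO than in WT cells, against 0.282% and 0.209% of all tested genes, and 4 of 31 had an unadjusted p under 0.05, close to the 12.0% of all tested genes. The gene called was Elovl6, higher by 1.1 (SE 0.24, adjusted p 0.0438), or 2.14-fold, with no overlap between the 3 KO and 3 WT libraries. That call ended under 12 of 22 alternatives, with adjusted p from 0.0225 to 0.189, and among single libraries it was lost without any of the 3 WT medium libraries, WT IFNγ libraries A or B, or any of the 3 KO IFNγ libraries. These comparisons share libraries with the IFNγ comparisons above.

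The lipid genes and the interferon marker Irf1 can be set side by side in each treated library. In WT libraries A, B and C the median difference of the 31 genes from the WT medium mean was -0.52, -0.73 and -0.50, and that of the 13 genes called in the mean response was -0.83, -0.83 and -0.95. Irf1 in the same libraries lay 4.72, 4.57 and 2.43 above the medium mean. In KO libraries the medians of the 31 genes were -0.67, -0.43 and -0.59, and those of the 13 called genes -0.69, -0.68 and -0.74. Irf1 in these libraries lay 4.90, 4.70 and 3.54 above the KO medium mean. The 13 genes were called on these same libraries, so their medians below 0 follow from that choice. Differences in rank between libraries were not tested. Among KO libraries C, the weakest in Irf1, was the most lowered over the called genes, and A over the 31 genes. Among WT libraries C, the weakest in Irf1, was the least lowered over the 31 genes, by a narrow margin to A, and the most lowered over the called genes. Without it 11 genes were called in WT cells, and without library C of both treated groups 11 in WT, 7 in KO and 14 in the mean response.

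**Figure D4:**
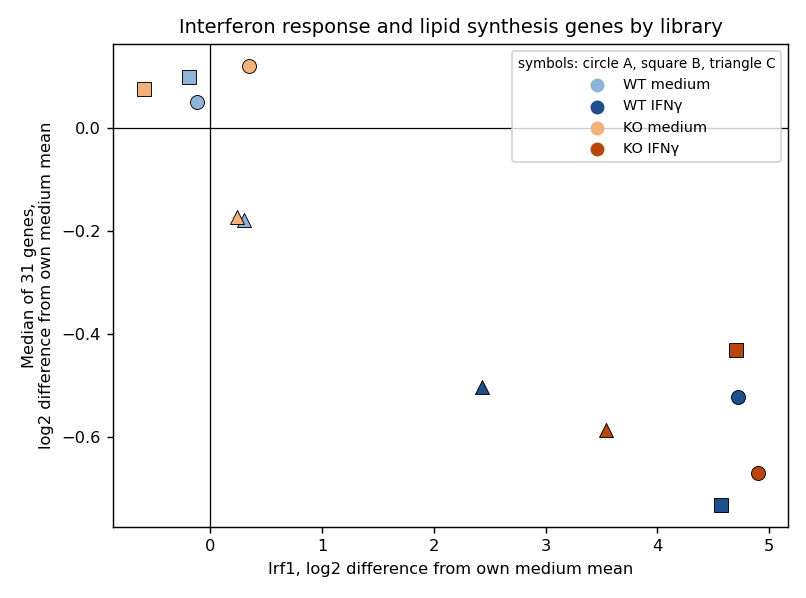
Each of the 12 libraries by its log2 difference in Irf1 (horizontal) and by the median log2 difference of the 31 genes (vertical), both from the medium mean of the same genotype; colours are groups and symbols replicates. The 6 IFNγ libraries lie between -0.43 and -0.73 on the vertical axis over an Irf1 range of 2.43 to 4.90, and the 2 medium libraries below 0 are both replicate C.

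In medium, too, library C stood lower than A and B in both genotypes, with medians of -0.18 in WT and -0.17 in KO cells and of -0.30 and -0.20 over the called genes. Of the 13 called genes 13 were below the medium mean in WT library C and 12 in KO library C, while Irf1 there was 0.31 and 0.24 above it. The median difference of all tested genes in medium library C was 0.0085 in WT and 0.0082 in KO cells. The share of all tested genes below the mean was not counted, and the 13 genes were called partly on these medium libraries. What set library C apart was not tested. Single libraries also moved the counts of calls. In WT cells the count of 12 dropped to 5 without medium library A, medium library B or IFNγ library A, and to 6 without IFNγ library B. In KO cells the count of 7 dropped to 1 without medium library A, the library with the fewest reads, and to 4 without medium library B. Without the variance trend the WT calls of Hmgcs1 and Fasn and the KO calls of Sqle and Sc5d also ended (adjusted p 0.051 to 0.0633), that of Sqle with the compared groups only as well. The count of 13 in the mean response stayed between 11 and 15 under all alternatives, and 11 of these 13 genes, all but Lss and Msmo1, were called under each of them.

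Other genes of the pathway were taken from lists chosen by known function. Of 15 tested genes that process SREBPs or degrade their regulators, such as the proteases Mbtps1 and Mbtps2, 0 fell and 0 rose in the mean response by limma and by voom, with a median of -0.00052 and with 2 lower and 1 higher at an unadjusted p under 0.05. In KO cells 1 gene of that list fell, where 2.69% of all tested genes did: Tecr (-0.64, SE 0.18, adjusted p 0.0343), known mainly as a fatty acid elongation enzyme. Of 18 other lipid enzymes known as SREBP targets 3 fell and 2 rose in the mean response, where 5.79% of all tested genes fell and 8.35% rose, so the number that rose is near that background. Lpin1, a phosphatidate phosphatase and coregulator, fell by 1.97 (SE 0.19, adjusted p 1.68e-07), from 7.75 ± 0.24 to 6.13 ± 0.48 in WT and from 8.11 ± 0.18 to 5.80 ± 0.23 in KO cells (mean ± SD, n = 3, limma). Acsl3 fell by 0.88 and the desaturase Fads1 by 0.76, whereas the acyl-CoA synthetase Acsl1 rose by 1.23 and Acsl4, named outside the rule after its values were seen, by 0.43.

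Of 12 genes that supply NADPH and acetyl-CoA 2 fell, Idh1 by 0.81 (SE 0.14, adjusted p 0.000424) and Mthfd1 by 0.43, and 0 rose. Of 12 genes on the branches from farnesyl diphosphate to dolichol, ubiquinone and prenylated proteins 0 fell and 0 rose by limma, by voom and at an unadjusted p under 0.05, with a median of -0.03. Of 11 genes of sterol transport and esterification Scarb1 fell by 0.54 and Npc2 rose by 0.70. Of 13 genes of fatty acid oxidation Acadm fell by 0.69, Hadh fell by 0.59 and Cpt1a, the gate of mitochondrial oxidation, rose by 0.76. Among all tested genes 5.79% fell and 8.35% rose in the mean response, so 1 call in a list of this size is near that background.

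Genes of oxysterols and of the liver X receptors, which sense them, were read beside the synthesis genes. Ch25h and Cyp7b1, enzymes that make and break down oxysterols, had no read in any library, so the level of Ch25h message was under what these depths detect. Of 9 tested genes 3 fell and 0 rose in the mean response, against 5.79% and 8.35% of all tested genes. Apoe fell by 1.70 (SE 0.16, adjusted p 2.02e-07), Arl4c by 1.17 and Mylip by 1.15. The efflux pump Abca1 changed by -0.28 (adjusted p 0.296) and Abcg1 by 0.31 (adjusted p 0.14).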

How the data were processed

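The authors deposited 1 table of log2 values per gene and library. The genome build was GRCm38 and the tools were STAR, HTSeq 0.6.1, DESeq2 1.10.1 and FastQC 0.11.2, per the submitters' processing notes, which give no roles; annotation release and strand setting are not given in the sources used here. Read as log2 of a count over a size factor, plus 1, 100% of the values gave whole numbers of reads to within 0.01. Per the labels' protocols, cytosolic poly-A RNA was primed with barcoded oligo-dT, Actb levels guided the pooling, and replicates were made independently, while the series text speaks of replicates pooled in a single library; the table keeps 12 columns.

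limma 3.58.1 in R 4.3.3 was fitted to all 12 libraries and 10981 genes with 1 mean per group and a variance trend, two-sided, with Benjamini-Hochberg adjustment over all of them; calls are at adjusted p under 0.05. The script was tested on simulated data. All fold changes are on the scale of log2(normalised count + 1), which understates the change of low genes. Errors are limma standard errors (SE) or standard deviations (SD). Gene positions came from GENCODE M21, promoters from RefSeq. Members and lists were chosen with earlier results of these data known. All 32 genes are described, with library values for those called in the mean response or in both genotypes, and up to 4 called genes of each other list. Library values of Idi1, Acaca and Srebf2 were added after their values were seen. Alternatives changed scaling, pseudocount, filter, model and libraries. No count interval covers amplification copies.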

Additional observations from a re-analysis of the deposited data

How the results depend on the processing

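The alternatives were other scalings (by total reads or quantiles), voom on recovered reads, a pseudocount of 8, other filters, no variance trend, a fit of the compared groups only, a replicate block and leaving out libraries; no value changed direction past the threshold. The 13 calls of the mean response stayed between 11 and 15. The 12 WT calls ranged from 5 to 11 when 1 library was left out, and the 7 KO calls from 1 to 9; without the variance trend 4 KO calls were left. The 1 gene higher in KO than WT cells with IFNγ, Elovl6, came to 0 with no filter beyond 1 read, without the trend, with the compared groups only and without both IFNγ libraries of letter C, and to between 0 and 1 when 1 library was left out. The WT median moved from -0.52 to -0.68 without WT IFNγ library A. Calls between genotypes in medium and for the difference in response were 0 throughout. A fit of the compared groups alone gives no separate value for the mean response or the difference. Where 1 library of a group is left out, the others are assumed to vary alike.

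With the replicate block 11 WT, 8 KO, 13 mean and 1 KO against WT calls were made, and the WT call of Acaca ended (adjusted p 0.0554). The letters were not taken as pairs: of 18 same-letter pairs 2 correlated above 0.1 (r from -0.064 to 0.219). In 24 of 36 cases a library did correlate best with its own letter, a hint from the data, not the design, of something shared.

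Depth limits Mvk, Idi1, Tm7sf2 and Acss2, with under 500 reads each, and Scd1 could not be tested.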
